A study of Mus musculus with 3 samples.

Results

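Kit-positive spermatogonia that had not entered meiosis were picked out of 3 single-cell libraries of mouse testis by the UMIs (unique molecular identifiers, 1 per captured transcript) of 10 genes. A cell was taken when it held at least 1 UMI of *Kit*, at least 1 UMI of any of the second markers *Dmrtb1*, *Rhox13*, *Esx1* and *Sohlh1*, at least 1 UMI of *Ddx4* or *Dazl*, and 0 UMIs of *Gm4969*, *Prdm9* and *Gfra1*. The rule took 2096 of the 19396 cells kept, of which 292 came from the cKO library, 848 from the CT library and 956 from the Tomato-negative library. They are called Kit-positive cells here. The levels of these 10 genes chose the cells and are given as a description.

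*Kit* encodes the receptor tyrosine kinase for stem cell factor (SCF, gene *Kitl*), which Sertoli cells present to germ cells inside the seminiferous tubule. Stem and progenitor spermatogonia lack the receptor, gain it when retinoic acid commits them to differentiation, then divide as type A, intermediate and type B spermatogonia and lose it as they enter meiosis. Loss of Kit signalling in mice is known to spare stem spermatogonia and to remove differentiating ones.

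The cKO library came from *Amh-cre; Scf fl/fl* mice of 6 weeks, in which Cre under the *Amh* promoter deletes *Scf* in Sertoli cells while other cells that make SCF keep the gene. The CT library came from *Scf fl/fl* mice of 6 weeks, which carry the same floxed alleles without Cre. Both were depleted of haploid germ cells by flow cytometry. The Tomato-negative library came from *Ddx4-creER; R26tdTomato* mice, labelled as 8 weeks old and given tamoxifen, after removal of the Tomato+ germ cells, so that its germ cells are those the sort left. All mice were on a C57BL/6 background, each library pooled several animals, and there was 1 library per group. No test across animals was therefore possible, every interval below is a 95% interval for counting error only, and genotype cannot be told apart from library.

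The deposited counts held 68602272 UMIs in the cKO, 90453018 in the CT and 195380762 in the Tomato-negative library. Cells with at least 200 detected genes and at most 10% mitochondrial UMIs were kept, which left 7038 cKO, 6124 CT and 6234 Tomato-negative cells. Kit-positive cells had a median of 18056.5 UMIs in cKO, 9428 in CT and 15697.5 in Tomato-negative. Kept cells of 2 libraries shared between 7 and 14 barcodes, and Kit-positive cells shared 0. Doublets were left in, and Scrublet called 24 of the 292 cKO, 39 of the 848 CT and 71 of the 956 Tomato-negative Kit-positive cells as doublets. Cells with at least 10 UMIs of Sertoli markers and no *Ddx4* or *Dazl* UMI held *Kitl* at 220.4 CPM (UMIs of the gene over all UMIs of the cells, scaled to 1000000) in 227 cKO cells, 364 CPM in 3 CT cells and 123.6 CPM in 501 Tomato-negative cells. As 3′ tags these UMIs do not show whether the floxed part was removed, so *Kitl* does not check the labels.

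*Kit*, on chromosome 5 of GRCm38 from 75574916 to 75656722, was held at 1.95 UMIs per Kit-positive cell in cKO, 2.22 in CT and 3.50 in Tomato-negative. Exactly 1 *Kit* UMI, the lowest number the rule takes, was present in 59.25% of cKO, 44.58% of CT and 31.28% of Tomato-negative Kit-positive cells. The second marker that let cells in differed between the libraries. *Sohlh1*, a basic helix-loop-helix factor that starts spermatogonial differentiation, was present in 93.15% of cKO cells, 57.31% of CT cells and 60.88% of Tomato-negative cells. *Dmrtb1*, a DMRT-domain factor, was present in 10.62% of cKO cells, 54.72% of CT cells and 77.2% of Tomato-negative cells. *Rhox13*, an X-linked homeobox gene of germ cells, was present in 38.7%, 59.43% and 57.22% of cKO, CT and Tomato-negative cells, and *Esx1*, another X-linked homeobox gene, in 31.16%, 50.47% and 55.75%. *Sohlh1* was the only second marker in 40.75% of cKO, 10.26% of CT and 6.695% of Tomato-negative Kit-positive cells. All cells with a *Ddx4* or *Dazl* UMI differed in the same direction between cKO and CT. Of these, 75.17% of cKO, 23.49% of CT and 32.87% of Tomato-negative cells held *Sohlh1*. In the same order *Dmrtb1* was held by 3.949%, 49.25% and 69.74%, *Rhox13* by 28.88%, 41.37% and 42.31%, and *Esx1* by 15.66%, 28.51% and 37.28%. The difference is thus not particular to Kit-positive cells.

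Free RNA and doublets can satisfy the rule as well. Cells with at least 2 UMIs of immune markers are called immune cells here. The whole rule was met by 0.8596% of 349 cKO, 4.505% of 222 CT and 7.527% of 279 Tomato-negative immune cells. Their median depths were 3390, 3023 and 5622 UMIs. Germ cells were not left out of this class, and 14.9%, 41.44% and 48.75% of its cells held a *Ddx4* or *Dazl* UMI. Those that met the whole rule are themselves Kit-positive cells. Values of immune cells, here and below, can therefore hold RNA of germ cells as well as free RNA. A *Kit* UMI was found in 4.298% of cKO, 7.658% of CT and 12.54% of Tomato-negative immune cells, against 19.78%, 28.82% and 41.58% of the cells with a *Ddx4* or *Dazl* UMI, which were deeper (medians of 15579, 7411 and 17447 UMIs). *Dmrtb1* was found in 0.2865% of cKO immune cells, but in 31.53% of CT and 50.18% of Tomato-negative immune cells. The immune share of *Dmrtb1* thus differed between the libraries as that of the Kit-positive cells did. Germ cells among the immune cells can hold *Dmrtb1* too, so these shares do not measure free RNA alone. The difference in this marker is not read further.

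The name of the cells did not hold for all of them. A list of 18 genes of pachytene spermatocytes and later stages (among them *Ldhc*, the germ cell lactate dehydrogenase, and *Hspa2*, a chaperone of spermatocytes) took more than 1% of the UMIs in 1 cKO cell, in 75 CT cells (8.844%) and in 185 Tomato-negative cells (19.35%). These high-pachytene cells had medians of 48992 UMIs in CT and 86305 in Tomato-negative and gave 32.78% of the UMIs of CT and 58.27% of those of Tomato-negative Kit-positive cells. Few cells lay near that limit. The share was at most 0.1091%, 0.9782% and 0.5344% in the remaining cKO, CT and Tomato-negative cells and at least 2.085%, 1.051% and 1.453% in the high-pachytene ones, with 0, 2 and 3 cells between 0.5 and 1.5%.

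Genes of the X chromosome, which is silenced in pachytene spermatocytes, gave 0.625% of the UMIs of high-pachytene CT cells and 0.8507% of those of high-pachytene Tomato-negative cells. In the other Kit-positive cells the X chromosome gave 1.912% (cKO), 1.953% (CT) and 2.042% (Tomato-negative). All 75 CT and 185 Tomato-negative high-pachytene cells held *Dmrtb1*, and only 18.67% and 21.62% held *Sohlh1*. Gene values below are therefore given for the 291 cKO, 773 CT and 771 Tomato-negative cells of at most 1%, called low-pachytene Kit-positive cells, a limit chosen after the data had been seen. Counts over all Kit-positive cells stand beside them.

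**Figure D1:**
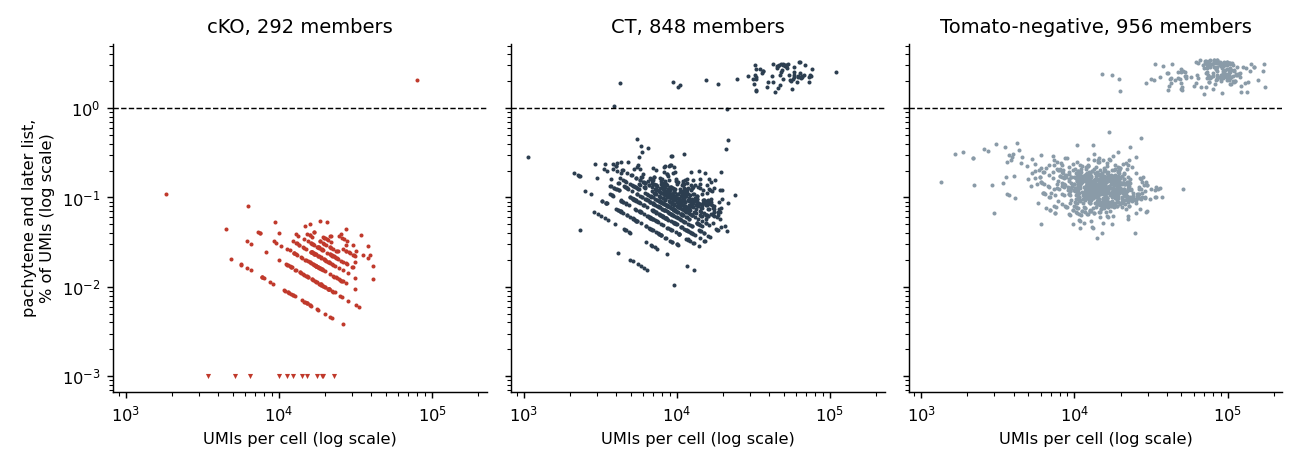
Each point is a Kit-positive cell, with its UMIs on the horizontal axis and the percent of them in the pachytene and later list on the vertical axis, both on log scales; triangles are cells with none and the dashed line is 1%. A separate upper group of deep cells holds 75 of 848 CT and 185 of 956 Tomato-negative cells, against 1 of 292 cKO cells.

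Kit-positive cells were a smaller share of germ cells in cKO than in CT and Tomato-negative. They made up 10.03% (8.96 to 11.18) of 2912 cKO cells with a *Ddx4* or *Dazl* UMI, against 16.55% (15.54 to 17.59) of 5125 CT cells and 19.49% (18.39 to 20.63) of 4904 Tomato-negative cells. Without high-pachytene cells on either side of the ratio, the shares were 10.08% in cKO, 20.65% in CT and 25.34% in Tomato-negative. With every cell thinned to 3000 UMIs before the rule was applied, they were 3.717% (3.017 to 4.525) in cKO, 9.39% (8.545 to 10.29) in CT and 11.68% (10.71 to 12.71) in Tomato-negative, with 778 cKO, 757 CT and 555 Tomato-negative cells too shallow to enter. The 3 intervals did not overlap in any of these readings. The share depends on which cells each sort left, and the Tomato-negative sort differed from the other 2.

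**Figure D2:**
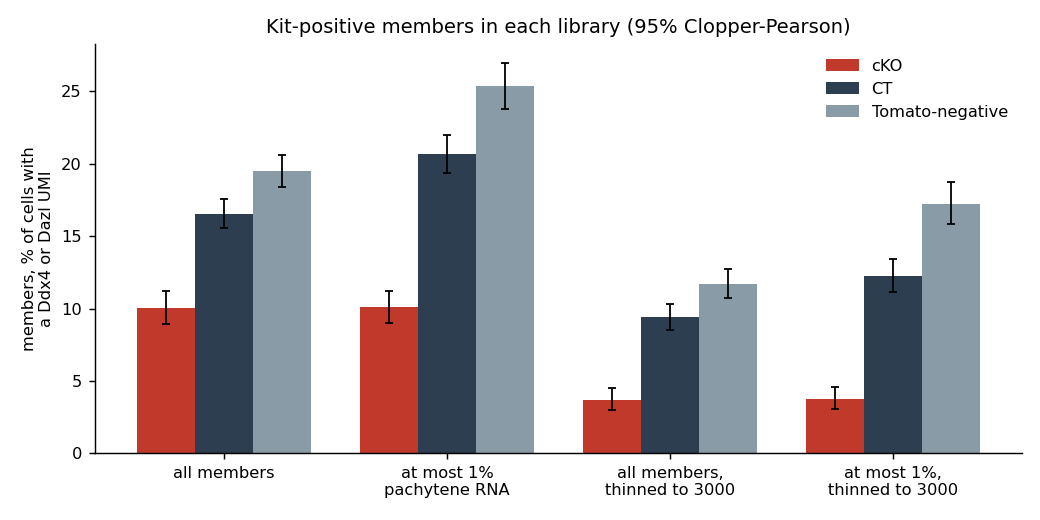
Kit-positive cells as a percent of cells with a *Ddx4* or *Dazl* UMI, with exact 95% Clopper-Pearson intervals, over all cells, over cells of at most 1% pachytene RNA, and both after thinning to 3000 UMIs per cell. The cKO bar is the lowest in each of the 4 readings, from 3.717 to 10.08%, against 9.39 to 20.65% in CT.

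The cells before and after them in the lineage were picked by rules of the same kind. Stem-like cells held *Gfra1*, the GDNF receptor of stem spermatogonia, and no *Kit*. Progenitors held at least 2 of *Zbtb16*, *Sall4*, *Lin28a*, *Sox3*, *Upp1* and *Rarg* and none of *Gfra1*, *Kit*, *Gm4969*, *Prdm9* and *Stra8*. Cells entering meiosis held both *Stra8* and *Gm4969*, a pair of genes required for meiotic initiation. In low-pachytene cells there were 0.3981 Kit-positive cells per stem-like cell in cKO, against 9.202 in CT and 5.931 in Tomato-negative. Per progenitor there were 0.8338 in cKO, 4.955 in CT and 5.281 in Tomato-negative. Per cell entering meiosis there were 1.608 in cKO, 1.173 in CT and 1.105 in Tomato-negative. The cKO cells of that class went against its name, with *Sycp3*, of the meiotic chromosome axis, at 344 CPM in cKO against 1254 in CT, and *Egr4* at 290.4 CPM in cKO against 7.997 in CT. After thinning of the same low-pachytene cells, stem-like cells, progenitors, Kit-positive cells and cells entering meiosis numbered 309, 694, 95 and 42 in cKO, against 42, 136, 405 and 372 in CT and 72, 179, 460 and 299 in Tomato-negative. After thinning, the cKO series was highest at the progenitor step, and the CT and Tomato-negative series at the Kit-positive step. Before thinning the cKO classes numbered 731, 349, 291 and 181, highest at the stem-like step. The CT and Tomato-negative series were highest at the Kit-positive step before thinning too, with 773 and 771 cells. Thinning can remove UMIs of *Gfra1*, *Kit* and *Stra8*, and the progenitor rule asks for none of them.

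The levels of genes that the rule did not read were compared as ratios of CPM, with a gene counted when the ratio passed 2-fold in either direction. Among low-pachytene Kit-positive cells, 1139 of 11638 genes with at least 50 UMIs (9.79%) were higher in cKO than in CT and 981 (8.43%) lower. Against both CT and Tomato-negative, 699 (6.01%) were higher and 735 (6.32%) lower in cKO. The ratio of CT to Tomato-negative, the only measure of the spread between libraries without the deletion, passed 2-fold upward for 77 genes (0.662%) and downward for 453 (3.89%). Over all Kit-positive cells, 1562 of 13664 genes (11.4%) were higher and 3110 (22.8%) lower in cKO than in CT, 1378 (10.1%) and 2864 (21%) against both libraries, and the ratio of CT to Tomato-negative passed 2-fold upward for 707 (5.17%) and downward for 1358 (9.94%). The high-pachytene cells thus moved the split between higher and lower genes. The median log2 ratio of cKO over CT was -0.10 over the 11638 genes and -0.05 over the 13664.

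Several regulators of spermatogonial differentiation stood at like levels in low-pachytene cKO and CT cells. *Stra8*, the retinoic acid target that precedes meiosis, was held at 349.5 CPM in low-pachytene cKO cells, 343.8 in CT cells and 482.7 in Tomato-negative cells, a log2 ratio of cKO over CT of 0.02 (-0.06 to 0.11). *Dmrt1*, a doublesex-related factor that keeps spermatogonia mitotic, was held at 226.5 CPM in cKO, 231.3 in CT and 257.4 in Tomato-negative. *Dnmt3b*, a DNA methyltransferase that appears as spermatogonia differentiate, was held at 109.2 CPM in cKO, 108.7 in CT and 117.3 in Tomato-negative. The libraries lay within 2-fold of each other for these 3 genes, and the intervals of the cKO to CT ratio of all 3 included 0. Over all Kit-positive cells, the log2 ratios of *Stra8*, *Dmrt1* and *Dnmt3b* were 0.52, 0.48 and 0.51 to CT and 0.69, 0.98 and 1.07 to Tomato-negative.

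Of the 14 genes listed for differentiation and meiotic entry, 2 were past 2-fold higher and 4 past 2-fold lower in cKO than in CT, with a median log2 ratio of -0.01. *Prss50*, a testis serine protease, fell to 13.05 CPM in cKO cells, against 88.28 in CT cells and 75.34 in Tomato-negative cells (log2 ratio to CT -2.75, -3.14 to -2.40). *Meioc*, whose product stabilises the meiotic transcripts with *Ythdc2*, fell to 37.28 CPM in cKO, against 180.3 in CT and 160.7 in Tomato-negative. *Ythdc2* stood at 63.38 CPM in cKO, 140.9 in CT and 119.6 in Tomato-negative, past 2-fold against CT alone. *Elavl2*, a neuronal-type RNA-binding protein, fell to 67.29 CPM in cKO, against 165 in CT and 175.4 in Tomato-negative. *Crabp1*, a retinoic acid carrier, stood at 270.5 CPM in cKO, 405.8 in CT and 368.3 in Tomato-negative, within 2-fold. *Bnc2*, a zinc finger protein of prospermatogonia and spermatogonia, rose to 81.64 CPM in cKO, against 20.56 in CT and 24.35 in Tomato-negative. *Ccnd2*, a D-type cyclin, rose to 247.2 CPM in cKO against 67.17 in CT, with 134.7 in Tomato-negative. Low-pachytene stem-like cells held *Bnc2* at 97.59 CPM in CT and 101.5 in Tomato-negative, and *Ccnd2* at 615.4 and 557.8 CPM. Both genes were thus higher there than in the Kit-positive cells of the same library.

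**Figure D3:**
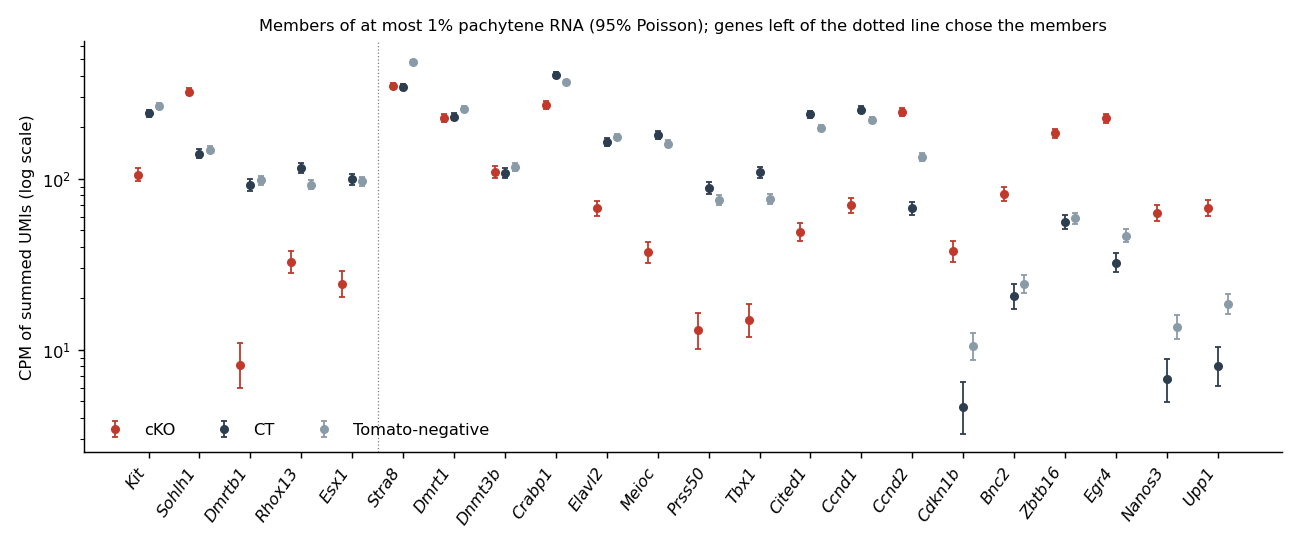
CPM of summed UMIs (log scale) of 22 genes in low-pachytene Kit-positive cells, with exact 95% Poisson intervals; genes left of the dotted line belong to the rule. *Stra8*, *Dmrt1* and *Dnmt3b* lie together in the 3 libraries, *Elavl2* to *Ccnd1* lie lower in cKO, and *Ccnd2* to *Upp1* lie higher in cKO.

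Genes of undifferentiated spermatogonia formed the clearest group above CT. Of the 28 listed, 18 had enough UMIs; 14 of these were past 2-fold higher and 0 past 2-fold lower in cKO than in CT low-pachytene cells, with a median log2 ratio of 1.84, beside 9.79% of all genes higher and a median of -0.10. Over all Kit-positive cells the counts were 15 and 0 with a median of 2.17. That median was 0.97 after thinning to 3000 UMIs and 0.37 among cells of at most 3500 detected genes, which left 17 cKO cells. Against both CT and Tomato-negative, 9 were past 2-fold higher (*Bcl6b*, *Egr4*, *Nanos3*, *Neurog3*, *Ret*, *Tspan8*, *Upp1*, *Utf1* and *Zbtb16*).

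*Nanos3*, an RNA-binding regulator of progenitors, was held at 63.38 CPM (56.82 to 70.48) in cKO, 6.717 in CT and 13.67 in Tomato-negative, a log2 ratio to CT of 3.23 (2.80 to 3.70). *Egr4*, an early growth response factor of progenitors, was held at 226.1 CPM in cKO, 32.35 in CT and 46.58 in Tomato-negative. *Upp1*, a uridine phosphorylase of progenitors, was held at 67.48 CPM in cKO, 8.088 in CT and 18.61 in Tomato-negative. In these 3 genes the cKO level lay past 2-fold above both other libraries. *Zbtb16*, the PLZF transcription factor of undifferentiated spermatogonia, was held at 184.5 CPM in cKO, 55.93 in CT and 58.67 in Tomato-negative. *Ret*, the signalling partner of *Gfra1*, was held at 19.76 CPM in cKO, 2.879 in CT and 3.352 in Tomato-negative. *Neurog3*, a helix-loop-helix factor of progenitors, was held at 11.93 CPM in cKO, 2.879 in CT and 2.382 in Tomato-negative. *Sall4*, a zinc finger factor active in progenitors and differentiating cells alike, was held at 176.9 CPM in cKO, 63.33 in CT and 102.9 in Tomato-negative, past 2-fold against CT alone. Of the 18 genes with enough UMIs, *Pou3f1* and *Taf4b* had log2 ratios below 0, at -0.24 and -0.14.

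RNA of the list was found in immune cells as well, most in cKO. The summed level of the list was 1397 CPM in cKO, 603.6 in CT and 704.8 in Tomato-negative Kit-positive cells, while immune cells held it at 587.9 CPM in cKO, 118.1 in CT and 80.49 in Tomato-negative. At 3000 UMIs per cell, a *Zbtb16* UMI was found in 38.62% (32.99 to 44.49) of cKO, 14.44% of CT and 12.35% of Tomato-negative Kit-positive cells, and in 18.36%, 5.405% and 5.618% of immune cells. Before thinning the Kit-positive values were 85.57%, 34.67% and 43.45%. A *Nanos3* UMI was found at 3000 UMIs in 18.62% of cKO, 0.9186% of CT and 2.628% of Tomato-negative Kit-positive cells, and in 3.865% of cKO immune cells and 0% of the others. The cKO share of both genes lay above that of the cKO immune cells, and the part of free RNA in the ratios was not tested.

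Other genes were lower in cKO. The following were chosen after their values had been seen, as the first by the interval end nearest to 0 among the lower genes at least 4 times above the immune cells in CT. *Cited1*, a transcriptional coactivator, fell to 49.02 CPM in cKO, against 238.5 in CT and 198.4 in Tomato-negative (log2 ratio to CT -2.28, -2.48 to -2.09). *Tbx1*, a T-box factor, fell to 14.91 CPM in cKO, against 109.3 in CT and 76.66 in Tomato-negative. *Pcsk1n*, a proprotein convertase inhibitor, fell to 21.44 CPM in cKO, against 127.9 in CT and 128.4 in Tomato-negative. All 3 were at most 20.93 CPM in the immune cells of each library. *Hist1h2aa*, a testis histone gene, fell to 151.2 CPM in cKO, against 744.9 in CT and 418.6 in Tomato-negative. *Hist1h2ap*, a replication-dependent histone gene, fell to 5.406 CPM in cKO against 150.7 in CT, but stood at 588.4 in Tomato-negative, so that CT and Tomato-negative differed from each other too. The 5 others chosen in this way were *Gm43123*, *Tcea3*, *Lrp8*, *Plk5* and *Elavl3*, with log2 ratios between -3.34 and -2.41.

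Of the 10 genes chosen in the same way on the cKO side, 6 were past 2-fold higher against both libraries and 4 against CT alone (*Flt1*, *Kif26a*, *Gm34680* and *Wnk3*). *Utf1*, a chromatin factor of undifferentiated spermatogonia, rose to 27.03 CPM in cKO, against 4.387 in CT and 5.558 in Tomato-negative. *Lgals2*, a galectin, rose to 71.39 CPM in cKO, against 20.15 in CT and 17.03 in Tomato-negative. *Figla*, a helix-loop-helix factor best known from oocytes, rose to 56.85 CPM in cKO, against 22.21 in CT and 25.58 in Tomato-negative. *Ina*, a neurofilament gene, rose to 45.85 CPM in cKO, against 16.04 in CT and 21.7 in Tomato-negative. Of the 1139 higher genes, 52 (4.565%) were at least 4 times above the cKO immune cells, close to the 4.554% of all genes compared. Of the 981 lower genes, 296 (30.17%) were at least 4 times above the CT immune cells, close to the 29.45% of all genes compared.

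Most S phase and G2/M genes were within 2-fold. Of 43 S phase genes 2 were past 2-fold higher and 2 lower in cKO than in CT, with a median of -0.19, and of 54 G2/M genes 2 and 2, with a median of -0.30. At 3000 UMIs per cell the G2/M list gave a median of 27 UMIs in cKO, 35 in CT and 34 in Tomato-negative cells, and the S phase list 21, 23 and 25. Of 22 cyclins and their partners and inhibitors, 6 were higher and 6 lower, which is more than the 9.79% and 8.43% of all genes. *Cdkn1b*, the p27 inhibitor of cell cycle entry, rose to 37.65 CPM in cKO, against 4.661 in CT and 10.5 in Tomato-negative (interval of the log2 ratio to CT, 2.48 to 3.58), but cKO immune cells held it at 126.2 CPM. *Cdkn1c*, the p57 inhibitor, rose to 60.02 CPM in cKO, against 15.08 in CT and 27.97 in Tomato-negative. *Cdk4*, the kinase of the D cyclins, rose to 275.1 CPM in cKO, against 97.05 in CT and 101.5 in Tomato-negative. *Ccnd1*, a D-type cyclin, fell to 70.27 CPM in cKO, against 254.1 in CT and 220 in Tomato-negative, so that the 2 D-type cyclins *Ccnd1* and *Ccnd2* moved in opposite directions against CT.

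The E cyclins *Ccne1* and *Ccne2*, which drive entry to S phase, fell to 18.64 and 25.54 CPM in cKO, against 46.74 and 71.42 in CT and 40.32 and 122.4 in Tomato-negative. *Rrm2*, a subunit of ribonucleotide reductase, fell to 22.74 CPM in cKO, against 56.61 in CT and 57.17 in Tomato-negative. *Mki67*, the proliferation antigen, was held at 329.4 CPM in cKO, 555.7 in CT and 437.2 in Tomato-negative, within 2-fold. At 3000 UMIs a *Mki67* UMI was found in 43.79% of cKO, 66.93% of CT and 64.13% of Tomato-negative Kit-positive cells, with 19.81%, 31.53% and 6.742% of immune cells (before thinning 82.13%, 88.62% and 91.57% of Kit-positive cells). *Pcna*, the polymerase clamp, stood at 191.1 CPM in cKO, 178.3 in CT and 229.3 in Tomato-negative. Proliferation genes were thus present in the Kit-positive cells of all 3 libraries.

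Components of Kit signalling were mostly within 2-fold. Of 34 genes compared, 5 were higher and 0 lower in cKO than in CT, a median log2 ratio of 0.06. *Pik3r1* and *Pik3cd*, a regulatory and a catalytic subunit of PI3 kinase, rose to 31.87 and 14.91 CPM in cKO, against 13.3 and 3.838 in CT and 13.23 and 7.41 in Tomato-negative, and both stood higher still in cKO immune cells (85 and 25.45 CPM). *Mtor*, the growth kinase, was held at 113.3 CPM in cKO, 107.9 in CT and 111 in Tomato-negative. *Foxo1*, the factor that AKT keeps out of the nucleus, was held at 133.6 CPM in cKO, 79.09 in CT and 85.48 in Tomato-negative, within 2-fold. The receptor itself, *Kit*, was read by the rule and stood at 106.1 CPM in low-pachytene cKO cells, 242.5 in CT and 267.5 in Tomato-negative. *Kitl*, its ligand, gave 28 UMIs (5.143 CPM) in cKO, 6 (0.5529 CPM) in CT and 53 (1.951 CPM) in Tomato-negative Kit-positive cells.

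In the retinoic acid pathway 3 of 13 genes were higher and 1 lower in cKO than in CT, with a median of -0.06. *Rarg*, a receptor also on the list of undifferentiated spermatogonia and read by the progenitor rule, stood at 40.08 CPM in cKO, 19.47 in CT and 20.2 in Tomato-negative. *Rara* and *Rxrb*, receptors as well, were within 2-fold, at log2 ratios to CT of 0.29 and -0.14. *Aldh1a1*, which makes retinoic acid in Sertoli cells, and *Cyp26b1*, which degrades it, were past 2-fold higher against both libraries at 40.08 and 54.24 CPM in cKO, and stood at 118.6 and 245.8 CPM in cKO immune cells. *Rdh11*, a retinal reductase, was lower at 3.542 CPM in cKO, against 10.14 in CT and 11.38 in Tomato-negative, and stood at 157.3 CPM in CT immune cells. The genes that passed in this pathway were thus no higher in Kit-positive than in immune cells of the library where they were high, except *Rarg*, at 27.99 CPM in cKO immune cells.

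Genes of the synaptonemal complex and recombination were present in the Kit-positive cells of each library and mostly within 2-fold. Of 25 genes of early meiotic prophase 1 was past 2-fold higher and 0 lower in cKO than in CT, with a median of -0.47. *Sycp3*, an axial element protein, was held at 254.6 CPM in cKO, 312.1 in CT and 354.5 in Tomato-negative. *Smc1b*, the meiotic cohesin, was held at 405.2 CPM in cKO, 646.9 in CT and 557.8 in Tomato-negative. *Dmc1*, the meiotic recombinase, was held at 34.3 CPM in cKO, 62.51 in CT and 47.99 in Tomato-negative. *Rnf212*, a recombination factor, was the gene past 2-fold against CT, at 30.57 CPM in cKO, 13.57 in CT and 16.94 in Tomato-negative.

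Of 18 genes of the piRNA pathway, 2 were higher and 2 lower in cKO than in CT. *Piwil4*, a PIWI protein of undifferentiated spermatogonia, rose to 21.25 CPM in cKO, against 5.346 in CT and 7.763 in Tomato-negative, and *Tdrd5* to 68.22 CPM, against 26.46 in CT and 30.52 in Tomato-negative. *Tdrd6* and *Mybl1*, genes of pachytene spermatocytes, were lower, and CT immune cells held them at 216.4 and 70.62 CPM. None of 19 genes of DNA methylation and chromatin passed 2-fold (median -0.15), nor did any of 8 Y-linked genes (median 0.01). Of 19 X-linked spermatogonial genes, *Rhox10*, a homeobox gene of early spermatogonia, rose to 91.34 CPM in cKO, against 17.41 in CT and 26.47 in Tomato-negative, while *Rhox2a*, of the same cluster, fell to 4.66 CPM, against 13.85 in CT and 12.09 in Tomato-negative. *Taf7l*, an X-linked transcription factor subunit, was held at 507.8 CPM in cKO, 401.6 in CT and 375.7 in Tomato-negative, within 2-fold. *Xlr*, also X-linked, reached 2-fold against CT alone (39.33 CPM in cKO, 19.6 in CT and 27.61 in Tomato-negative).

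**Figure D4:**
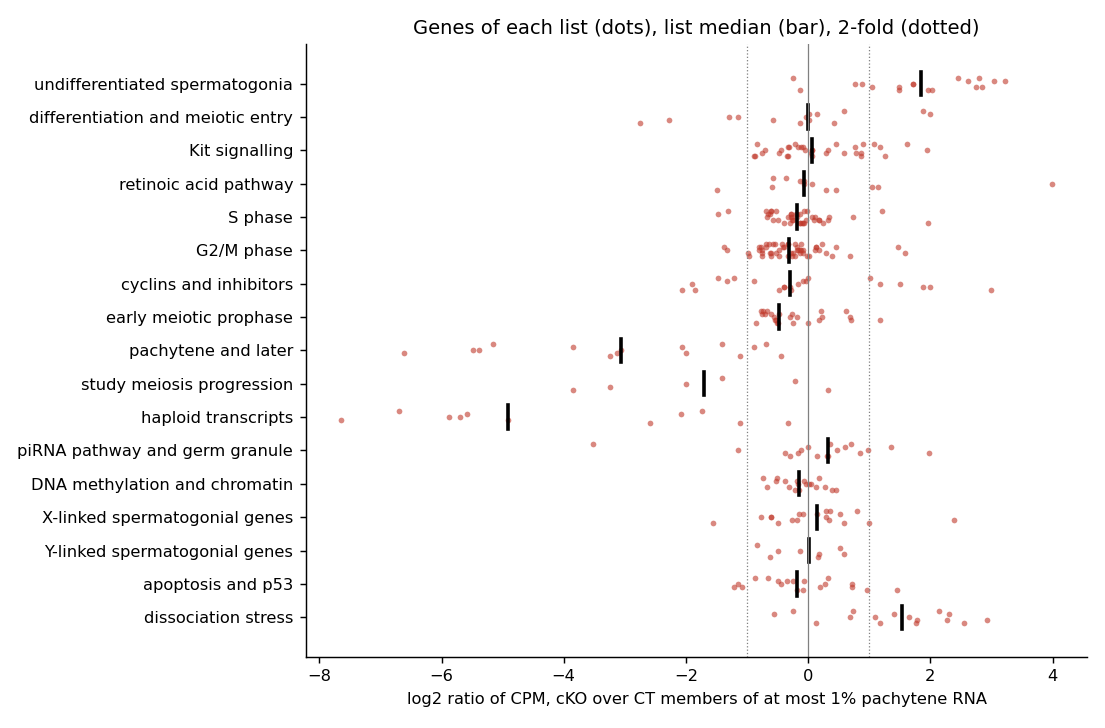
Log2 ratio of CPM, cKO over CT, in low-pachytene Kit-positive cells, with 1 dot for each gene, a bar for the list median and dotted lines at 2-fold. Undifferentiated spermatogonia (1.84) and dissociation stress (1.53) stand above 2-fold, and the pachytene (-3.07), study meiosis (-1.71) and haploid (-4.91) lists below it.

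Transcripts of late spermatocytes and spermatids were lower in cKO, and immune cells held more of them than Kit-positive cells did. Of the 15 genes compared in the list that set the 1% limit, 12 were past 2-fold lower in low-pachytene cells (median -3.07), given as a description, and all 18 over all Kit-positive cells (median -4.07). Of 11 haploid transcripts 10 were past 2-fold lower in low-pachytene cKO than CT cells, with a median of -4.91, and 16 of 16 over all Kit-positive cells, with a median of -2.95. *Prm1*, which encodes a protamine of sperm chromatin, was found at 1.678 CPM in cKO, 103.8 in CT and 224.4 in Tomato-negative low-pachytene cells, and at 453, 11770 and 15350 CPM in the immune cells of cKO, CT and Tomato-negative. *Ldhc* was found at 4.101 CPM in cKO, 188.5 in CT and 269.8 in Tomato-negative, and at 11.71, 5285 and 5432 CPM in immune cells. The immune cells thus exceeded the low-pachytene Kit-positive cells for both genes in all 3 libraries. High-pachytene cells held *Ldhc* at 6402 CPM in CT and 6350 in Tomato-negative, and the immune cells include cells with a *Ddx4* or *Dazl* UMI. *Ldhc* is also on the list that set the 1% limit. The excess therefore does not tell free RNA from germ cells among the immune cells. Of 6 genes that the study had chosen for meiosis progression on these samples, which are not independent evidence, *Meig1*, *Rsph1*, *Hspa2* and *Clgn* were lower in cKO than in CT (log2 ratios from -3.85 to -1.41), *Ubb* stood at -0.21 and *Piwil2* at 0.33. All 4 also belong to the list that set the 1% limit, and CT immune cells held all 4 at 463.4 CPM or more. Over all Kit-positive cells, the lowest in cKO were led by *AC140207.2* and *1700026D11Rik*, with 0 UMIs in 292 cKO cells against 648 and 514 UMIs in CT, then *Prm1*, *Rsph1*, *Gm21269*, *Prm2*, *Elfn2*, *Gm10505*, *Adam2* and *Pabpc6*. In low-pachytene cells, *Tnp2*, *4922502D21Rik*, *Prm1*, *Ldhc*, *1700008K24Rik*, *Prm2*, *Adam5*, *Stpg4*, *Pabpc2* and *Crisp2* were the 10 lowest, each higher in CT immune cells than in CT Kit-positive cells.

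Of the 10 genes highest in cKO over CT in all Kit-positive cells, 7 were higher still in cKO immune cells. *Mgst1*, a microsomal glutathione transferase, gave 123 UMIs in cKO, 1 in CT and 114 in Tomato-negative Kit-positive cells (log2 ratio of CPM to CT 7.36, 5.43 to 13.25), and cKO immune cells held it at 99.76 CPM against 22.59 in Kit-positive cells. *Akr1cl*, *Cxcl1*, *Gm15459*, *Prlr* and *Aldh1a1* were likewise higher in cKO immune than in cKO Kit-positive cells, with between 100 and 333 UMIs in Kit-positive cells. *Ptgds*, the prostaglandin D synthase of Sertoli and Leydig cells, was as high in Tomato-negative Kit-positive cells (29.16 CPM) as in cKO (31.23 CPM). *Sdc4*, a heparan sulphate proteoglycan, rose to 580.8 CPM in cKO, against 42.48 in CT and 52.13 in Tomato-negative, with 583.3 CPM in cKO immune cells. *Enc1*, an actin-binding protein, and *Foxf1*, a forkhead factor, stood at 71.82 and 69.62 CPM in cKO Kit-positive cells and at 43.26 and 35.12 CPM in cKO immune cells. Both were also held by CT progenitors, at 106.1 and 136.3 CPM, as was *Sdc4*, at 862.6 CPM. *Rin2* and *Sparcl1* joined the 10 in low-pachytene cells in place of *Sdc4* and *Foxf1*.

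Markers of somatic cells moved with the groups. The 42 markers of Leydig, Sertoli, myoid, stromal, immune and endothelial cells summed to 635.9 CPM in cKO, 187.7 in CT and 620.8 in Tomato-negative Kit-positive cells, with 0, 7 and 1 of them at 0 UMIs. At least 10 such UMIs were found in 9.589% of cKO, 1.651% of CT and 19.46% of Tomato-negative cells. Of 8 Leydig markers all were found in cKO, at 85.6 CPM, against 3.225 CPM in CT, where *Cyp11a1*, *Hsd3b1*, *Hsd3b6*, *Insl3*, *Hsd17b3* and *Lhcgr* were at 0, and 8.615 CPM in Tomato-negative. Few cKO cells gave the Leydig UMIs: the median per cell was 0, and 4.452% of cells held at least 2. At least 10 were held by 7 cells, with a maximum of 146. Sertoli markers summed to 71.27 CPM in cKO, 11.52 in CT and 481.7 in Tomato-negative. Without the cells holding at least 2 somatic UMIs, 76 of the 292 cKO, 603 of the 848 CT and 154 of the 956 Tomato-negative cells were left. Then 816 of 10989 genes compared were higher in cKO, in place of 1562 of 13664.

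Immediate early and heat shock genes, which dissociation of tissue can induce, were mostly higher in cKO than in CT low-pachytene Kit-positive cells. Of 16, 11 were past 2-fold higher and 0 lower in cKO than in CT, a median of 1.53. Against both CT and Tomato-negative 8 were higher, and the median against Tomato-negative was 0.98. *Fos* was held at 275.7 CPM in cKO, 80.88 in CT and 82.22 in Tomato-negative, *Egr1* at 156.4, 26.73 and 56.28 CPM, and *Hspa1a* at 39.89, 5.209 and 9.44 CPM. The 16 genes summed to 4458 CPM in cKO, 3198 in CT and 3196 in Tomato-negative Kit-positive cells, and to 14090, 4647 and 2417 CPM in immune cells. In stem-like cells the sums lay closer together, at 4561, 4277 and 3480 CPM, and in progenitors they were 4404, 3887 and 3256 CPM. *Egr4*, named above among progenitor genes, is of the same family as *Egr1*, and the part of this response in its level was not tested. Of 19 genes of apoptosis and the p53 response, 1 was higher and 3 lower in cKO than in CT (median -0.18). *Bax*, a pro-apoptotic protein, was held at 369.4 CPM in cKO, 439.5 in CT and 345.5 in Tomato-negative, and *Trp53* at 59.83, 63.88 and 73.13 CPM, both within 2-fold. *Cdkn1a*, the p21 inhibitor, fell to 4.66 CPM in cKO, against 10.97 in CT and 27 in Tomato-negative, and stood far higher in immune cells (387.3 CPM in cKO).

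The 4 classes were set in a row. In CT, *Egr4* was held at 258.3 CPM in stem-like cells, 358.2 in progenitors, 32.35 in Kit-positive cells and 7.997 in cells entering meiosis. In cKO the same series was 281.6, 356.1, 226.1 and 290.4 CPM, so the drop after the progenitor step was much smaller. *Nanos3* gave 66.99, 99.89, 63.38 and 76.41 CPM in cKO, against 55.11, 83.86, 6.717 and 3.732 CPM in CT. *Cited1* gave 9.271, 13.24, 49.02 and 47.04 CPM in cKO, against 16.07, 40.7, 238.5 and 295.3 CPM in CT. *Sycp3* gave 202.8, 208.7, 254.6 and 344 CPM in cKO, against 190.6, 209, 312.1 and 1254 CPM in CT. Stem-like cells and progenitors were thus within 2-fold in the 2 libraries for *Egr4*, *Nanos3* and *Sycp3*, while *Cited1* differed past 2-fold in progenitors already. So did *Meioc*, at 21.3 CPM in cKO and 69.06 in CT progenitors, and *Tbx1*, at 2.688 CPM in cKO and 18.5 in CT progenitors. In Tomato-negative progenitors *Cited1*, *Meioc* and *Tbx1* stood at 19.53, 28.89 and 9.358 CPM. The cKO progenitors were within 2-fold of these for *Cited1* and *Meioc*, while CT progenitors were past 2-fold above them. For *Tbx1* the cKO progenitors were past 2-fold below Tomato-negative too. The Tomato-negative series of *Egr4* fell after the progenitor step as in CT, at 233.5, 332.4, 46.58 and 23.02 CPM.

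**Figure D5:**
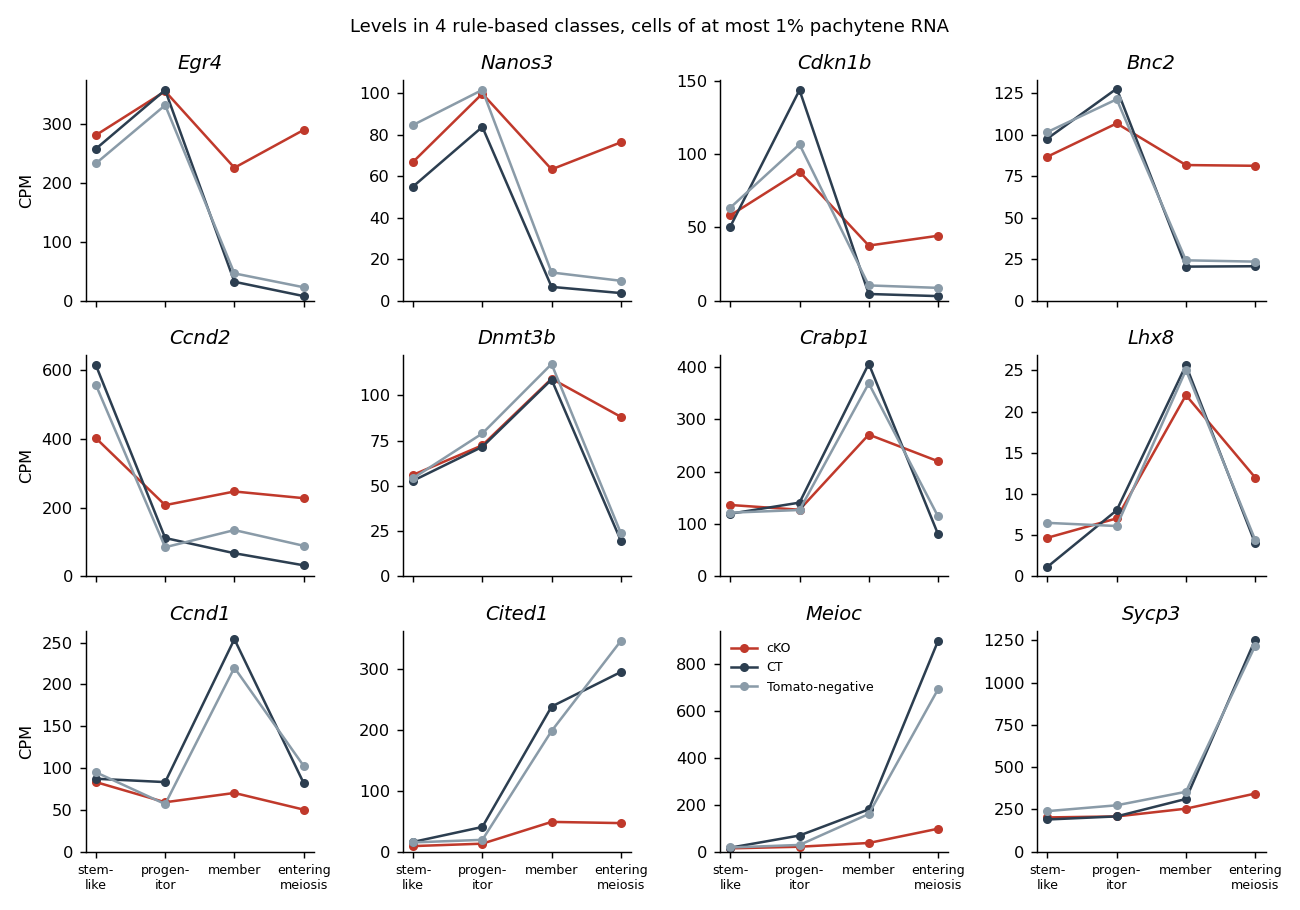
CPM of 12 genes in stem-like cells, progenitors, Kit-positive cells (labelled member) and cells entering meiosis, all of at most 1% pachytene RNA, with 1 line per library. *Egr4* in Kit-positive cells is 226.1 CPM in cKO against 32.35 in CT, while *Dnmt3b* is 109.2 against 108.7 and *Lhx8* 22 against 25.63.

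A few genes were highest in Kit-positive cells themselves. By their excess over both stem-like cells and cells entering meiosis in CT, the first 10 in low-pachytene cells included *Ass1*, *Lhx8*, *Tcea3*, *Flrt1*, *P3h3*, *Met*, *Plk5*, *Anxa4* and *Serpine2*, given as a description. *Lhx8*, a LIM homeobox factor of germ cells, stood at 4.677, 7.031, 22 and 11.99 CPM along the 4 classes in cKO, against 1.148, 8.016, 25.63 and 3.998 CPM in CT. *Ass1*, argininosuccinate synthase, stood at 15.84 CPM in cKO, 17.41 in CT and 13.59 in Tomato-negative Kit-positive cells. Both were at like levels in the 3 libraries. *Tcea3*, an elongation factor, stood at 6.524 CPM in cKO, 35.09 in CT and 42.52 in Tomato-negative, and *Met*, the hepatocyte growth factor receptor, at 14.35, 32.62 and 24.97 CPM.

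Levels also varied with the number of *Kit* UMIs, which the rule read, so the following is a description. The 172 low-pachytene cKO cells with 1 *Kit* UMI held *Egr4* at 260.7 CPM, the 77 with 2 or 3 at 202.2 CPM and the 42 with 4 or more at 127.3 CPM, and *Cdkn1b* at 50.03, 25.28 and 8.734 CPM. *Cited1* in the same order stood at 29.83, 58.73 and 109.8 CPM, *Tbx1* at 4.972, 20.82 and 44.92 CPM and *Stra8* at 247, 420.8 and 641.3 CPM. *Meioc*, at 33.25, 48.33 and 34.94 CPM, and *Sall4*, at 172.1, 189.6 and 174.7 CPM, showed no such order, and *Ccnd2*, at 193.9, 305.6 and 363.1 CPM, was lowest with 1 *Kit* UMI. At 4 or more *Kit* UMIs, *Egr4* stood at 127.3 CPM in cKO and 35.87 in CT, *Cited1* at 109.8 CPM in cKO and 265.6 in CT, and *Tbx1* at 44.92 CPM in cKO and 127.9 in CT. At the same number, *Meioc* stood at 34.94 CPM in cKO and 39.34 in CT, *Prss50* at 12.48 CPM in cKO and 19.67 in CT, and *Elavl2* at 81.1 CPM in cKO and 89.1 in CT. These 3 genes, past 2-fold lower over all low-pachytene cKO cells, were thus within 2-fold of CT there. In Tomato-negative cells with 4 or more *Kit* UMIs they stood at 73.93, 30.21 and 136.5 CPM. Against these, *Meioc* and *Prss50* were still past 2-fold lower in cKO, and *Elavl2* was within 2-fold.

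*Stra8* divided the cells otherwise. At least 1 *Stra8* UMI was present in 84.54% of cKO, 57.57% of CT and 65.11% of Tomato-negative low-pachytene Kit-positive cells, and at 3000 UMIs per cell in 54.83% (48.9 to 60.65), 41.99% (38.46 to 45.59) and 40.47% (36.96 to 44.06), with 3.865%, 14.41% and 6.18% of immune cells. *Meioc* stood at 32.44 CPM in cKO and 135.2 in CT cells with *Stra8*, and at 74.51 CPM in cKO and 256.7 in CT cells without it, lower in cKO in both. *Ccnd2* stood at 256.6 CPM in cKO and 98 in CT cells with *Stra8*, and at 174.9 CPM in cKO and 14.8 in CT cells without it. The undifferentiated list gave a median of 4 UMIs per cKO cell at 3000 UMIs, against 1 in CT and 1 in Tomato-negative cells, and 7.586% of cKO, 22.7% of CT and 24.05% of Tomato-negative cells held none.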

How the data were processed

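Per the labels and the study's methods, the authors aligned reads to GRCm38 with Cell Ranger 2.1.1 and deposited UMI counts per gene and cell for each library. The deposited counts were not normalised and were used as they stood. Cells with under 200 detected genes or over 10% mitochondrial UMIs were left out, and no upper limit was set on genes. Doublets were left in and marked with Scrublet (scanpy 1.11.5, expected rate 0.06). The Kit-positive cells and the 18 gene lists were chosen with earlier results of these data known. Gene names were matched to GENCODE M21 (36557 of 36593 names) for chromosomes and positions.

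UMIs were summed over cells of a class and library and scaled to CPM. Sums carry exact Poisson, shares exact Clopper-Pearson and ratios exact conditional binomial 95% intervals, computed with Python 3.11.15, numpy 2.4.6 and scipy 1.17.1 and tested on simulated data. With 1 library per group no p-value was computed. Genes with at least 50 UMIs over cKO and CT cells were compared, with 0.5 added to both counts in the point estimate, and counted when the ratio passed 2-fold. Named genes had at least 100 UMIs over both libraries and were the 10 highest and 10 lowest by the interval end nearest to 0 (rule, mitochondrial and marker genes left out), list genes past 2-fold against both CT and Tomato-negative, up to 4 further genes of a list by UMIs, the 6 genes of the study's meiosis list, and the 10 genes most above stem-like cells and cells entering meiosis in CT. Other list genes, and genes at least 4 times above the immune cells, were named after their values had been seen. So was the limit of 1% pachytene RNA chosen, and the alternatives that restrict cells by *Sohlh1* and *Dmrtb1* or leave out cells with 10 or more somatic UMIs. Other alternatives changed the limits on genes, mitochondrial UMIs, *Kit* and second markers, doublets, somatic UMIs, depth, weighting, scaling, the UMI minimum, the added count and the library compared with. A few genes that these rules name are not reported here.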

Additional observations from a re-analysis of the deposited data

How the results depend on the processing

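The share of Kit-positive cells among cells with a *Ddx4* or *Dazl* UMI was lower in cKO than in CT under every alternative run. It was 2.755% (cKO), 10.36% (CT) and 7.295% (Tomato-negative) among cells of at most 3500 detected genes, and 21.42% in Tomato-negative with at most 7500. It was 4.087%, 9.171% and 13.4% in the same order of libraries with *Kit* at 2 or more UMIs, 5.666%, 12.27% and 15.7% with 2 or more second markers, and 3.717%, 9.39% and 11.68% after thinning. Leaving out Kit-positive cells with 2 or more somatic UMIs gave 2.61%, 11.77% and 3.14%, and leaving out high-pachytene ones gave 15.08% in CT and 15.72% in Tomato-negative. Over all cells kept it was 4.149%, 13.85% and 15.34%. CT and Tomato-negative thus changed order with the limit of 3500 genes and without somatic UMIs.

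Over all Kit-positive cells, 1562 of 13664 genes were higher and 3110 lower in cKO than in CT. Among cells of at most 3500 genes 192 were higher and 493 lower of 5861 compared. With *Kit* at 2 or more UMIs 714 and 1811 of 11204 were, and after thinning 177 and 402 of 5684. With *Stra8* at 1 or more UMIs 938 and 1739 of 11692 were, and with a minimum of 200 UMIs 720 and 1864. In low-pachytene cells with *Sohlh1* and no *Dmrtb1*, 721 were higher and 521 lower of 10263. Without cells of 2 or more somatic UMIs 816 of 10989 were higher, and in low-pachytene cells 981 of 11638 were lower. With *Stra8* at 0 UMIs 1950 of 10693 were lower, and against Tomato-negative in place of CT 3421 were higher. Fewer cells or UMIs leave fewer genes to compare, from 5684 after thinning to 13664, and part of these falls follows from that.

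The median log2 ratio of the undifferentiated list ranged from 0.37 to 2.19 over 15 alternatives and that of the stress list from 0.59 to 2.64. The pachytene (-6.14 to -2.5), study meiosis (-4.32 to -1.39) and haploid (-6.23 to -0.89) lists were negative under all 15, and each of the other 12 lists changed sign under at least 1. Of 144 values of single genes under 4 alternatives, 54 stayed close to the reported one and 90 moved, among them *Ptgds* (5.32 to CT, 0.10 to Tomato-negative) and *Ccnd1* (-1.34 and -0.49), with no called direction turned round. No paired analysis was possible because each group has 1 library. With 1 library per group, differences between mice, preparations and sorts cannot be told apart from genotype.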
